A study of Rattus norvegicus with 24 samples.

Results

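Interferon-stimulated genes were followed in 6 brain regions of male Wistar rats given MK-801 (dizocilpine), which blocks the channel of the NMDA type of glutamate receptor. The group comprised 31 genes, read out by 41 of the 41012 probes on the array (31 of 35525 genes), found by the gene names printed in the scanner files. A total of 23 members carried their current symbol there and 8 an older name, such as G1p2 for Isg15, or Best5 for Rsad2 and Isgf3g for Irf9, which RefSeq lists as synonyms. The members were selected on their high-dose ratios, so high-dose values, and differences between doses that contain them, are given as a description with no test. Low-dose ratios were tested, but they have the saline RNA of the same region as denominator. A saline level that is high by chance lowers both ratios, so the low-dose test is not independent of the choice of members.

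The 9 rats received saline (3 rats), 0.08 mg/kg MK-801 (low dose) or 0.16 mg/kg MK-801 (high dose) in 1 intraperitoneal injection, and brains were removed 40 min later. The sample titles prefix all of these groups, saline included, with Control, a term that the labels do not explain. Rats were 9 weeks old per the sample annotation, or 10 weeks per the series description. Cerebral cortex, hippocampus, amygdala, ventral striatum, hypothalamus and midbrain were each hybridised as drug against saline RNA of the same region on 2 arrays of opposite dye per dose, 24 arrays in all. A dye-swapped pair was counted as 1 replicate, since the labels do not say that its arrays held separate extracts, and values are log2 ratios of MK-801 over saline averaged over the pair. The labels do not state how many rats were pooled in an extract. All 6 regions came from the same rats and both doses were set against saline rats of 1 group of 3, so p-values measure only the spread between regions, and which rats made the difference cannot be told apart from the treatment.

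Interferons are secreted proteins that cells release on sensing viral nucleic acid. Type I interferon binds the receptor pair Ifnar1 and Ifnar2, the kinases Jak1 and Tyk2 are activated, and a factor that contains Stat2 and Irf9 binds interferon-stimulated response elements (ISRE) in the promoters of target genes. Type II interferon acts through gamma-activated sites (GAS). In brain, resting levels of these genes are kept up by low tonic interferon signalling, and microglia, endothelial cells, astrocytes and neurons can all respond.

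Probes of 3 members that fell at the low dose are shown because the ratios below were read from these 60 bases. They are printed 5′ to 3′ in lower case as the files give them, without marking. The Irf7 probe lies at chr1:201607889-201607948 (minus strand, rn3 build), that of Isg15 at chr5:173045169-173045228 (minus strand), and that of Usp18 at chr4_random:1588272-1588823 (minus strand), a span longer than the probe. Exons and introns of that build were not analysed here.
Irf7: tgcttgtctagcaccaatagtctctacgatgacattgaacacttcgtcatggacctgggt
Isg15: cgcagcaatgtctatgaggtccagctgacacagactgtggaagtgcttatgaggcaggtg
Usp18: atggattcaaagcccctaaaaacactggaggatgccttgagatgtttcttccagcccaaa

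Promoter windows of 300 bases, from 250 before to 50 after the annotated start, were taken from RefSeq (GRCr8 build) and matched by symbol for 24 of the 31 members. Isg15, Rtp4, Usp18, Mx2, Dhx58, Ifit1 and Ifit2 had no entry. The ISRE core was searched as GAAANNGAAA and the GAS as TTCNNNGAA, both strands, where N is any base. An ISRE core was found in 14 of 24 members (58.3%), against 1312 of all 33469 windows (3.92%). A GAS was found in 7 of 24 members (29.2%), against 2970 of 33469 windows (8.87%). Both were present in 5 members (20.8%) and in 172 of all windows (0.514%), and in Bst2 alone among members they overlapped. These shares describe letters in a window, and sharing of an ISRE is part of what defines the group.

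The stretches around the ISRE cores of 7 members are shown because these genes have region by region values below and the motif sits at different distances and on either strand. Capitals mark the ISRE core, which reads as its reverse complement where it lies on the other strand, and Oas1a and Bst2 hold a pair of overlapping cores. The stretches are at chr1:205800058-205800117 (Irf7), chr12:41330400-41330465 (Oas1a), chr16:18255058-18255123 (Bst2), chr2:234005671-234005726 (Gbp2), chr6:48788233-48788292 (Rsad2), chr1:205541768-205541827 (Ifitm3) and chr14:15988816-15988857 (Cxcl10), all GRCr8. Oas1a, Gbp2 and Cxcl10 are on the plus strand and the others on the minus strand.
Irf7: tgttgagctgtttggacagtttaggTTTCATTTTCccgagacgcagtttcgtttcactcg
Oas1a: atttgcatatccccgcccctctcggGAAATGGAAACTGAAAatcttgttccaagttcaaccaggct
Bst2: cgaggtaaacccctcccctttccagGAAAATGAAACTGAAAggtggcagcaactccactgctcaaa
Gbp2: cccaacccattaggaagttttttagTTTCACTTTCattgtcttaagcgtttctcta
Rsad2: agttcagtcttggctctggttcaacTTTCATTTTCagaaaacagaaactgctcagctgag
Ifitm3: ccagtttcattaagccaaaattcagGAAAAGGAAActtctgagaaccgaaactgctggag
Cxcl10: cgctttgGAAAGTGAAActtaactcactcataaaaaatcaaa

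**Figure D1:**
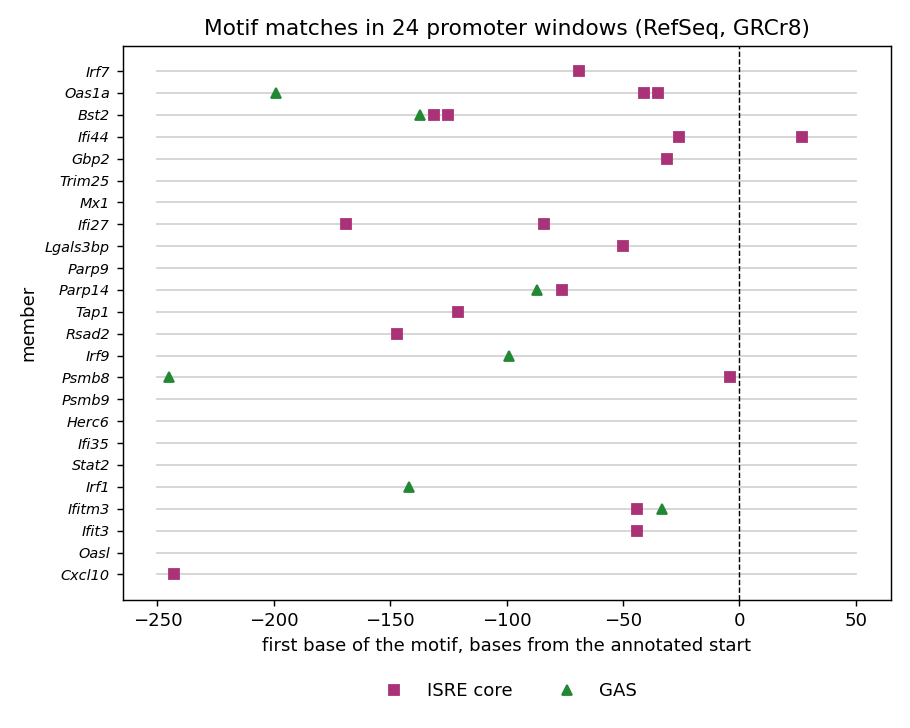
Positions of motif matches in the 300-base windows of 24 members. The x axis gives the first base of each match in bases from the annotated start (dashed line), squares are ISRE cores and triangles GAS matches. An ISRE core is present in 14 members, and in 13 of them at least 1 core lies wholly upstream of the start.

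At the low dose, 8 of the 29 members tested fell and 0 rose (limma with Benjamini-Hochberg adjustment over 23195 genes, 0.05). Of all genes tested, 1.33% were called lower and 1.31% higher. The saline RNA shared with the arrays that chose the members enters this count. Cxcl10 is counted although it reached the filter through saline RNA, the channel where it was higher, so its call supports nothing. With the scanner software's processed signals or the deposited values, 3 of the 8 were called, Irf7, Isg15 and Gbp2, and the other 5 had limma adjusted p from 0.0523 to 0.176. At an unadjusted limma p under 0.05 there were 15 members lower and 1 higher, Herc6, beside 6.92% and 6.45% of all genes. The 8 were the transcription factor Irf7, the ubiquitin-like modifier Isg15 and its protease Usp18, the antiviral proteins Oas1a, Rsad2, Ifitm3 and Gbp2, and the chemokine Cxcl10. The median member stood at -0.066 at the low dose, where the median of all genes was 0.0019. In bulk tissue, fewer cells of a type and less RNA per cell cannot be told apart. Of the 6 called members with a promoter entry all 6 held an ISRE core, as did 8 of the 16 other tested members with an entry. The 6 include Cxcl10, an ISRE is part of what defines the group, and a link between motif and call was not tested.

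**Figure D2:**
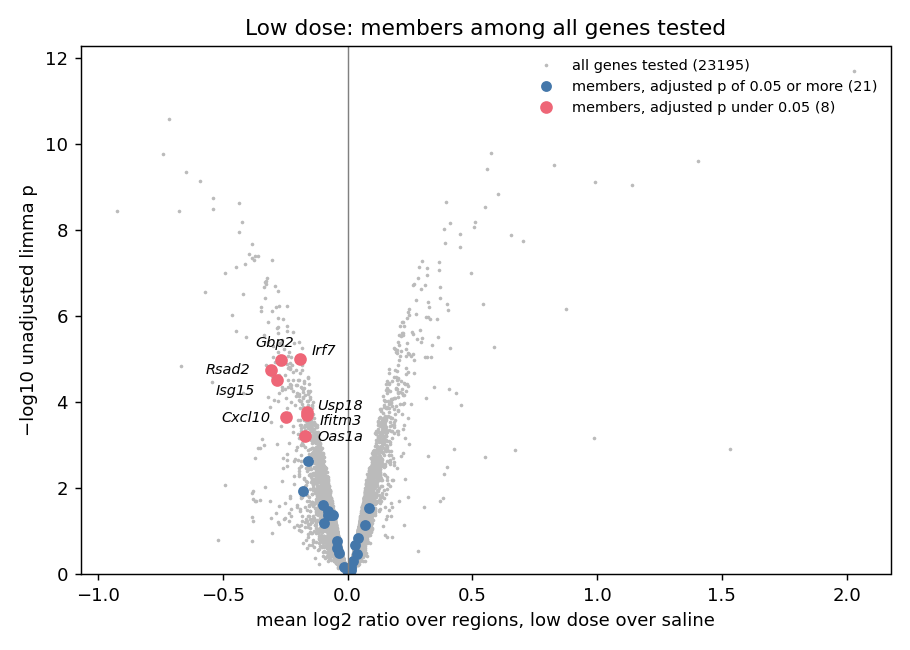
Low-dose ratios of all 23195 genes tested. The x axis is the mean log2 ratio over regions, the y axis −log10 of the unadjusted limma p. Grey dots are all genes, red dots the 8 members with an adjusted p under 0.05 and blue dots the other 21 members tested. All 8 red dots lie left of 0, between -0.31 and -0.16. That of Cxcl10 passed the filter through saline RNA, the channel where it was higher, and supports nothing.

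Across the high-dose arrays, on which the group was selected, 28 members passed the brightness filter and their median ratio was -0.12, with 13 of 28 below 0 in all 6 regions. For all genes that share was 4.17%, and their median ratio was -0.001. A single member, Ifit1, was above 0 in all 6 regions, beside 4.1% of all genes. The probe read for it belongs to a predicted gene model. The dim probe of Ifit1 itself averaged -0.035 at the high dose and was below 0 in 5 of 6 regions. Among 28 members with a low-dose value in every region, well above background or not, 7 were below 0 in all 6 (4.38% of all genes). Another 1 was above 0 in all 6 (4.8% of all genes), the RNA sensor Dhx58. In hippocampus, drug and saline RNA of Dhx58 were each well above background on 0 of 2 low-dose arrays. The members with the lowest high-dose means were not all those called at the low dose: Bst2 and Rtp4 were among the lowest 5 at the high dose and did not pass at the low dose, whereas Rsad2, Ifitm3 and Cxcl10 passed at the low dose with smaller or unfiltered high-dose ratios.

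**Figure D3:**
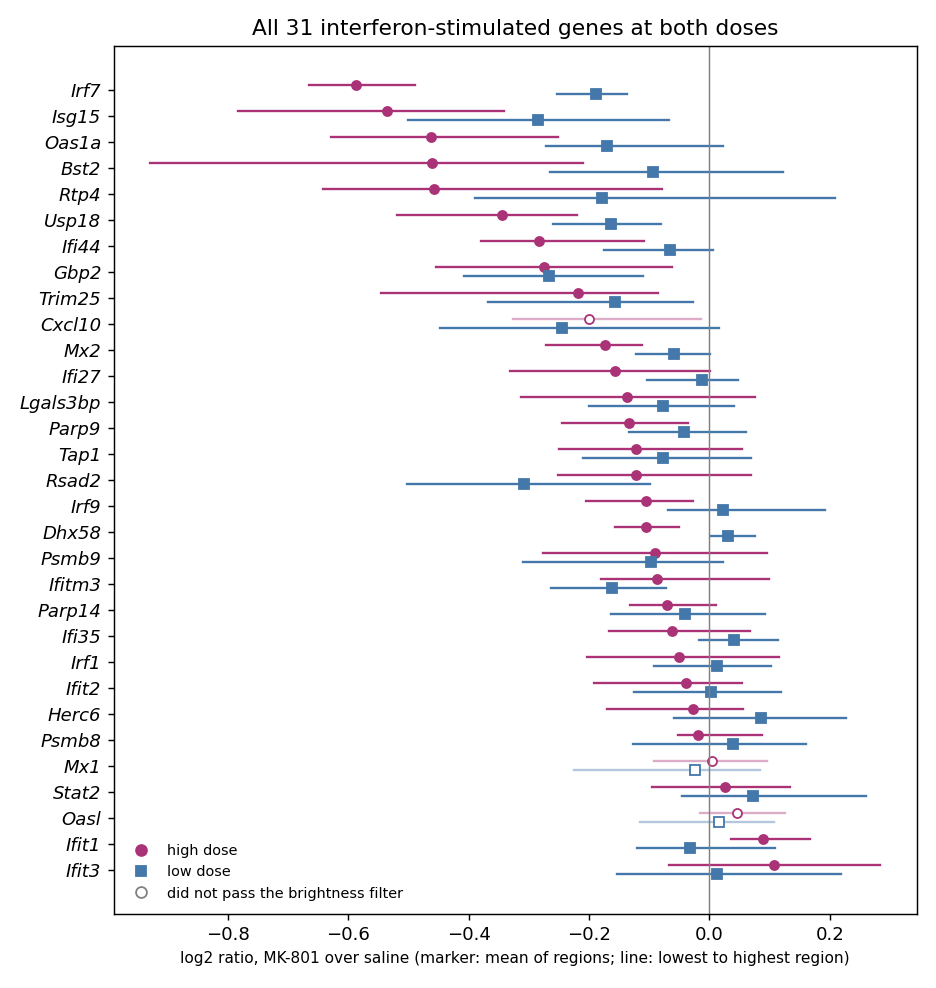
Mean log2 ratio (marker) and range over regions (line) of all 31 members, with circles for the high dose and squares for the low dose, sorted by the high-dose mean. Open markers did not pass the brightness filter. Means run from -0.59 (Irf7) to 0.11 (Ifit3) in high-dose ratios and from -0.31 (Rsad2) to 0.085 (Herc6) in low-dose ratios.

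Among the transcription factors, Irf7, the interferon-induced factor that drives further type I interferon transcription, had the lowest high-dose mean of the group. Its high-dose ratios were -0.64 in cortex, -0.50 in hippocampus, -0.49 in amygdala, -0.67 in ventral striatum, -0.66 in hypothalamus and -0.55 in midbrain. At the low dose they were -0.14, -0.14, -0.20, -0.25, -0.23 and -0.17 in the same order. No region was above 0 at either dose. Single arrays of the doses overlapped, with a low-dose array at -0.45 in ventral striatum and a high-dose array at -0.395 in hippocampus. The low-dose mean was -0.19 ± 0.026 (SE, n = 6 regions, limma adjusted p = 0.00147), with 11 of 12 arrays below 0, and the high-dose mean of -0.59 corresponds to 0.666 times the saline level. The size at the low dose depended on the dye orientation: it was -0.31 on the arrays with the drug RNA in Cy3 (limma adjusted p = 8.05e-05) and -0.073 on those with it in Cy5 (limma adjusted p = 0.148).

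None of the other factors passed at the low dose. Irf9, the DNA-binding partner of Stat2, was below 0 in all 6 regions at the high dose (mean -0.11, -0.21 to -0.028) and averaged 0.023 at the low dose (-0.07 to 0.19, limma adjusted p = 0.84). Stat2 averaged 0.026 (high) and 0.072 (low, limma adjusted p = 0.429). Irf1, a factor of the type II response, averaged -0.05 and 0.013 (limma adjusted p = 0.911 at the low dose). Ranges over regions of Stat2 and Irf1 included 0 at both doses.

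Isg15 encodes a ubiquitin-like protein that is attached to other proteins. Its high-dose ratios were -0.44 in cortex, -0.78 in hippocampus, -0.34 in amygdala, -0.58 in ventral striatum, -0.66 in hypothalamus and -0.41 in midbrain. Low-dose ratios were -0.34, -0.50, -0.067, -0.24, -0.28 and -0.27. Hippocampus was lowest and amygdala highest at both doses. Both doses share the saline RNA of a region, so the order of regions is not independent between doses, here and for the genes below. Isg15 fell by 0.28 ± 0.044 at the low dose (SE, n = 6 regions, limma adjusted p = 0.00353), and all 12 arrays of each dose were below 0. Isg15 kept its call in 18 of 19 alternatives, the most of any member, and lost it within the second scan day alone (amygdala and midbrain, -0.17, limma adjusted p = 1). Several alternatives left its estimate unchanged: the mean over probes, no filter, measurement in 6 of 6 regions and scan day as block. The deposited values are the ratios of the processed signals, so the tally overstates stability.

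The proteins that attach or remove Isg15 differed among themselves. Usp18, the protease that removes Isg15 and also dampens the interferon receptor, stood at -0.22 in cortex, -0.41 in hippocampus, -0.34 in amygdala, -0.34 in ventral striatum, -0.52 in hypothalamus and -0.24 in midbrain at the high dose. Its low-dose ratios were -0.081, -0.26, -0.17, -0.13, -0.26 and -0.094. It was thus lowest in hypothalamus and highest in cortex at either dose, where the saline RNA is shared. It was below 0 on all 12 arrays of each dose. The low-dose mean was -0.16 ± 0.031 (SE, n = 6 regions, limma adjusted p = 0.0135), and its dimmer second probe averaged -0.06 (low) and -0.14 (high). Without hypothalamus the Usp18 call was lost (-0.14, limma adjusted p = 0.0572), as it was without replicate 1, the arrays with drug RNA in Cy5 (-0.10, limma adjusted p = 0.0646).

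Trim25, a ubiquitin and Isg15 ligase that activates the RNA sensor Rigi, was lowest in cortex at both doses. Its high-dose ratios were -0.55 in cortex, -0.25 in hippocampus, -0.12 in amygdala, -0.16 in ventral striatum, -0.14 in hypothalamus and -0.086 in midbrain, and its low-dose ratios -0.37, -0.20, -0.21, -0.099, -0.042 and -0.027. All 12 values were below 0, yet the low-dose mean of -0.16 ± 0.041 (SE, n = 6 regions) did not pass (limma adjusted p = 0.0719). Herc6, the Isg15 ligase of rodents, averaged -0.028 (high) and 0.085 (low, limma adjusted p = 0.295), with 5 of 6 low-dose regions above 0.

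Genes outside the group that act in the same conjugation were the only ones of the pathway lists to pass at the low dose. Of 55 other interferon-induced genes 40 were on the array and 29 were tested, of which 2 fell and 0 rose, beside 1.33% and 1.31% of all genes. At an unadjusted limma p under 0.05, 4 were lower and 1 higher, beside 6.92% and 6.45% of all genes. The 2 that passed after adjustment were Uba7, the enzyme that activates Isg15, and Ube2l6, the enzyme that carries it. Uba7 stood at -0.16 ± 0.031 (SE, n = 6 regions, limma adjusted p = 0.0137) and Ube2l6 at -0.16 ± 0.031 (limma adjusted p = 0.0182). Both were below 0 in 6 of 6 regions. At the high dose they averaged -0.18 and -0.39, also below 0 in every region. The other low high-dose means of that list were Oasl2 at -0.27 and Irgm at -0.22, and the highest were Serping1 at 0.10, Ifitm1 at 0.074 and Tor3a at 0.026. The list's median was -0.032 in high-dose and -0.0096 in low-dose ratios. Without cortex neither Uba7 nor Ube2l6 passed, and without hippocampus, ventral striatum or midbrain Uba7 alone did. Neither passed without replicate 2, Ube2l6 did not pass with processed signals or the deposited values, and Uba7 did not pass with median centring.

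Upstream of the members, 27 of 35 listed ligands, receptors and signalling genes were on the array and 24 were tested. None passed at the low dose (limma, 0 calls, with 4 higher and 1 lower at an unadjusted p under 0.05, beside 6.45% and 6.92% of all genes). The list's median was -0.0078 in high-dose and -0.0071 in low-dose ratios. The interferons Ifnb1 and Ifng and the kinase Ikbke were on the array and did not pass the brightness filter at either dose. Lowest at the high dose were the adaptor Traf3 (-0.09), Jak1 (-0.076) and Jak2 (-0.06), and highest were the interferon gamma receptor Ifngr1 (0.099), the nuclease Samhd1 (0.046) and the RNA sensor Tlr7 (0.042).

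Oas1a makes short oligoadenylates that activate an RNA-degrading enzyme. Its high-dose ratios were -0.53 in cortex, -0.63 in hippocampus, -0.30 in amygdala, -0.63 in ventral striatum, -0.44 in hypothalamus and -0.25 in midbrain. In the same order the low dose gave -0.27, -0.27, 0.023, -0.21, -0.17 and -0.13, so that amygdala alone lay above 0. Oas1a fell by 0.17 ± 0.037 at the low dose (SE, n = 6 regions, limma adjusted p = 0.0288). This call was the least stable of the 8, kept in 6 of 19 alternatives. It was lost on leaving out any region other than amygdala (-0.18 to -0.15, limma adjusted p from 0.0557 to 0.108), and without replicate 2 the mean was -0.067 (limma adjusted p = 0.27).

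Rsad2, or viperin, which blocks viral RNA synthesis and budding, was the member lowest at the low dose. Its low-dose ratios were -0.21 in cortex, -0.50 in hippocampus, -0.098 in amygdala, -0.42 in ventral striatum, -0.34 in hypothalamus and -0.27 in midbrain, against 0.07, -0.25, 0.067, -0.18, -0.24 and -0.20 at the high dose. In all 6 regions the low-dose ratio was the lower one, a pattern that 3.33% of all genes showed and no other member. Rsad2 fell by 0.31 ± 0.045 at the low dose (SE, n = 6 regions, limma adjusted p = 0.00235), with 11 of 12 arrays below 0. On the arrays with drug RNA in Cy5 alone it was -0.17 (limma adjusted p = 0.02) and on the others -0.44 (limma adjusted p = 5.32e-05). With processed signals and with the deposited values the call was lost (-0.39 in both, limma adjusted p = 0.0598 and 0.0583). A second Rsad2 probe, well above background in 5 of 24 saline channels, averaged -0.016 at the low dose.

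Gbp2, a guanylate-binding protein induced above all by type II interferon, had nearly the same mean at both doses. High-dose ratios were -0.45 in cortex, -0.32 in hippocampus, -0.17 in amygdala, -0.37 in ventral striatum, -0.27 in hypothalamus and -0.062 in midbrain. Low-dose ratios were -0.41, -0.37, -0.11, -0.21, -0.26 and -0.24. Cortex was lowest in each series. The low-dose mean was -0.27 ± 0.037 (SE, n = 6 regions, limma adjusted p = 0.00153), it differed from the high-dose mean by -0.0086 (-0.16 to 0.18 over regions, high minus low), and the call held in 17 of 19 alternatives. As for Isg15, several of these alternatives left the Gbp2 estimate unchanged.

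Ifitm3, which hinders fusion of viruses with endosomes, fell at the low dose by 0.16 ± 0.030 (SE, n = 6 regions, limma adjusted p = 0.0119). The regions read -0.26 in cortex, -0.11 in hippocampus, -0.19 in amygdala, -0.072 in ventral striatum, -0.11 in hypothalamus and -0.22 in midbrain. At the high dose they read -0.11, -0.14, -0.052, -0.18, -0.14 and 0.099. Midbrain thus had opposite signs, and without cortex the low-dose call was lost (-0.14, limma adjusted p = 0.0514).

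Bst2, or tetherin, which holds budding virions at the cell surface, had the widest range over regions at the high dose. Its ratios were -0.37 in cortex, -0.93 in hippocampus, -0.21 in amygdala, -0.33 in ventral striatum, -0.60 in hypothalamus and -0.33 in midbrain. Its second probe gave a similar high-dose mean of -0.44 beside -0.46. Low-dose ratios were -0.078, -0.051, 0.12, -0.026, -0.26 and -0.26, with a mean of -0.094 ± 0.046 (SE, n = 6 regions, limma adjusted p = 0.41). That mean was -0.26 without replicate 2 (limma adjusted p = 0.00715) and 0.076 without replicate 1 (limma adjusted p = 0.259), so its direction at the low dose rested on the dye orientation.

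Rtp4, a receptor-trafficking chaperone that is strongly induced by interferon, was near 0 in amygdala and low elsewhere at the high dose. It read -0.51 in cortex, -0.52 in hippocampus, -0.078 in amygdala, -0.64 in ventral striatum, -0.52 in hypothalamus and -0.49 in midbrain. The low dose gave -0.39, -0.31, 0.21, -0.13, -0.20 and -0.25. The low-dose mean of -0.18 ± 0.060 (SE, n = 6 regions) did not pass (limma adjusted p = 0.182). Without amygdala it was -0.26 and passed (limma adjusted p = 0.00305), and without replicate 2 it was 0.022 (limma adjusted p = 0.838).

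Cxcl10, a chemokine that draws activated T cells, was dim: drug RNA was well above background on 7 and saline RNA on 10 of the 12 low-dose arrays, and it did not pass the filter at the high dose. It counted as measured in 4 regions, cortex, amygdala, ventral striatum and midbrain, and in cortex through saline RNA alone, so it reached the 4 regions the filter needs through the channel where it was higher. Its call therefore supports nothing, and without it 7 members were called. Low-dose ratios were -0.28 in cortex, -0.33 in hippocampus, 0.016 in amygdala, -0.19 in ventral striatum, -0.45 in hypothalamus and -0.25 in midbrain (mean -0.25 ± 0.047, SE, n = 6 regions, limma adjusted p = 0.0145). Hippocampus and hypothalamus, the lowest of these, did not count as measured but entered this mean and test. High-dose ratios, unfiltered, were -0.015, -0.12, -0.23, -0.30, -0.21 and -0.33 in the same order. The low-dose mean was -0.94 in the scanner software's own processed signals (limma adjusted p = 0.176), -0.23 without hippocampus (limma adjusted p = 0.0615) and -0.15 without replicate 2 (limma adjusted p = 0.051). Too few regions measured it for a test once cortex, amygdala, ventral striatum or midbrain was left out.

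**Figure D4:**
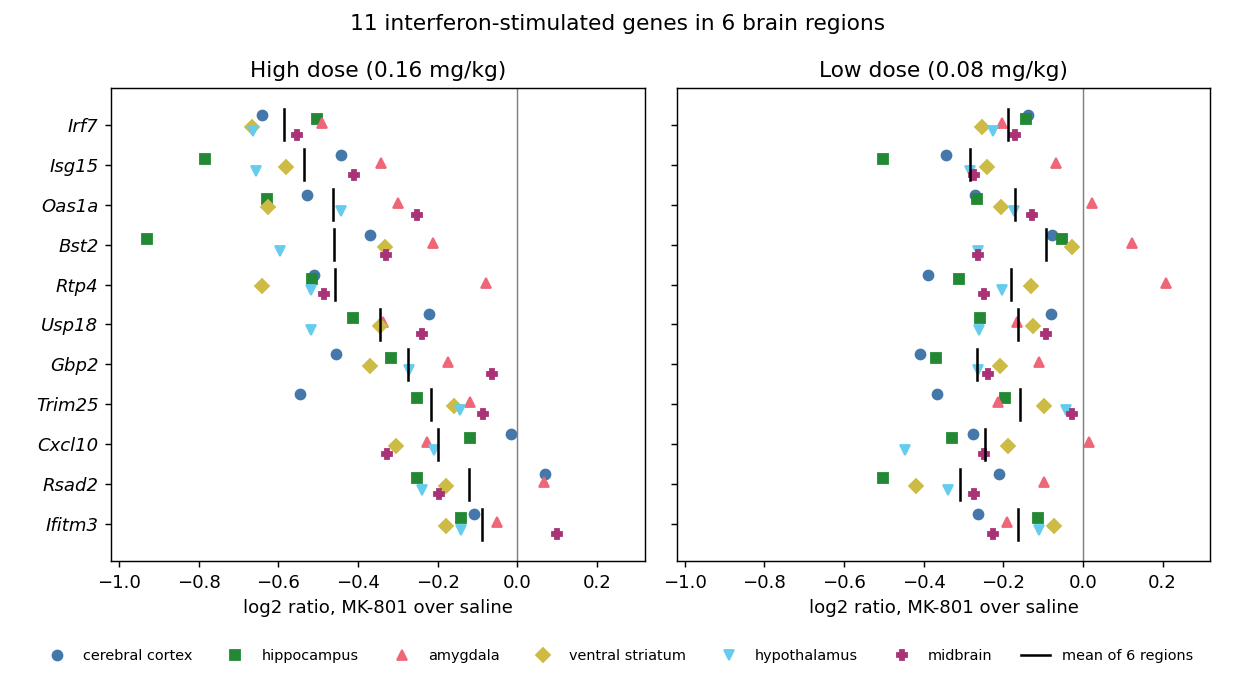
Log2 ratios of 11 members in each of 6 regions (symbols), high dose left and low dose right, with the mean of the regions as a black bar. Irf7, Isg15, Oas1a, Bst2 and Rtp4 are below 0 in every region at the high dose, and amygdala (red triangles) is the region with a low-dose ratio above 0 for Oas1a, Bst2, Rtp4 and Cxcl10.

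The remaining antiviral members divided. The interferon-induced protein Ifi44 was below 0 in all 6 regions with each of its 3 probes at the high dose (main probe -0.28, -0.38 to -0.11) and averaged -0.066 at the low dose (limma adjusted p = 0.346). The dynamin-like GTPase Mx2 averaged -0.17 (-0.27 to -0.11) and -0.06 (limma adjusted p = 0.344). Ifit1, Ifit2 and Ifit3, which bind foreign RNA ends, averaged 0.088, -0.038 and 0.11 in high-dose ratios and -0.033, 0.0023 and 0.012 in low-dose ratios (limma adjusted p from 0.724 to 0.988), so that none of these means was as low as those of Irf7 and Isg15. Ifit3 passed the high-dose filter through drug RNA alone (well above background on 10 arrays, saline on 4 of 12), the channel where it was higher, so its high-dose value supports nothing. The brightest Ifit1 probe belongs to a predicted gene model listed as Ifit1_predicted, and the probe of Ifit1 itself was well above background in 2 of 24 saline channels. The RNA sensor Dhx58 ranged from -0.16 to -0.051 over high-dose and from 0.0031 to 0.076 over low-dose regions (limma adjusted p = 0.636). Its second probe averaged -0.032 (high) and 0.0004 (low). Mx1 and Oasl did not pass the filter at either dose, with saline RNA well above background on 6 and 1 of 24 arrays. Members of the Mx, Ifit, Oas and Gbp families are close in sequence, and cross-hybridisation between them was not tested.

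No antigen-processing member passed at the low dose. The peptide transporter subunit Tap1 averaged -0.12 (high, -0.25 to 0.054) and -0.076 (low, limma adjusted p = 0.345). The immunoproteasome subunit Psmb9 averaged -0.09 and -0.097 (limma adjusted p = 0.271), with cortex lowest at both doses (-0.28 and -0.31). The immunoproteasome subunit Psmb8 averaged -0.02 and lay between -0.053 and 0.087 at the high dose (low dose, limma adjusted p = 0.735).

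Other members were Parp9 and Parp14, ADP-ribosyltransferases, at -0.13 and -0.071 (high) and -0.042 and -0.041 (low). Parp9 was below 0 in all 6 high-dose regions. Ifi27 averaged -0.16 and -0.013, the second over 5 regions because 1 midbrain spot was an outlier. The secreted protein Lgals3bp averaged -0.14 and -0.077. Ifi35 averaged -0.063 and 0.041. None of these 5 passed at the low dose (limma adjusted p from 0.31 to 0.916).

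Between doses, the high-dose ratio was the lower one in all 6 regions for 11 of 27 members, beside 3.99% of all genes. These 27 had a value in every region at both doses, well above background or not. The difference, which contains the arrays that chose the group, was largest for Irf7 at -0.40 (-0.50 to -0.29), Bst2 at -0.37 (-0.88 to -0.066), Oas1a at -0.29 (-0.42 to -0.12) and Rtp4 at -0.28 (-0.51 to -0.12). The median over members was -0.077, and over all genes -0.0034. Both ratios have the saline RNA of the region as denominator.

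By region, the median member at the high dose lay between -0.21 in hypothalamus and -0.077 in midbrain, and at the low dose between -0.11 in hypothalamus and -0.016 in amygdala. Medians of all genes in a region lay between -0.0067 and 0.0047 at either dose. Slides and scan days followed the regions. The second scan day held amygdala and midbrain, where 0 members passed at the low dose, the first held ventral striatum and cortex (1 called) and the third hippocampus and hypothalamus (4 called), each from 2 regions alone. Calls over all genes in these fits numbered 59, 138 and 158 in the same order, so they too differed between days. With scan day as a block 8 members were called.

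In the saline channels, 24 members were well above background in every region, and the level of the median member varied by 0.67 log2 units between its highest and lowest region. Amygdala was the highest region for 8 of the 24, midbrain for 6, hippocampus and hypothalamus for 4 each and cortex for 2. Hippocampus was lowest for 8, cortex for 6. Irf7 ranged from 8.92 ± 0.20 in cortex to 9.82 ± 0.14 in midbrain (SD over the 4 saline channels of a region), with ventral striatum (9.64) and hypothalamus (9.63) inside the spread of their neighbours. Bst2 ranged from 10.4 ± 0.76 in hippocampus to 11.4 ± 0.22 in midbrain, and Ifit2 from 7.98 ± 0.18 in hippocampus to 9.51 ± 0.47 in hypothalamus. The 4 channels re-measure saline RNA of the same rats. Levels are log2 units of a single channel after normalisation between arrays, and since each region lay on its own slide, region and slide cannot be told apart.

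**Figure D5:**
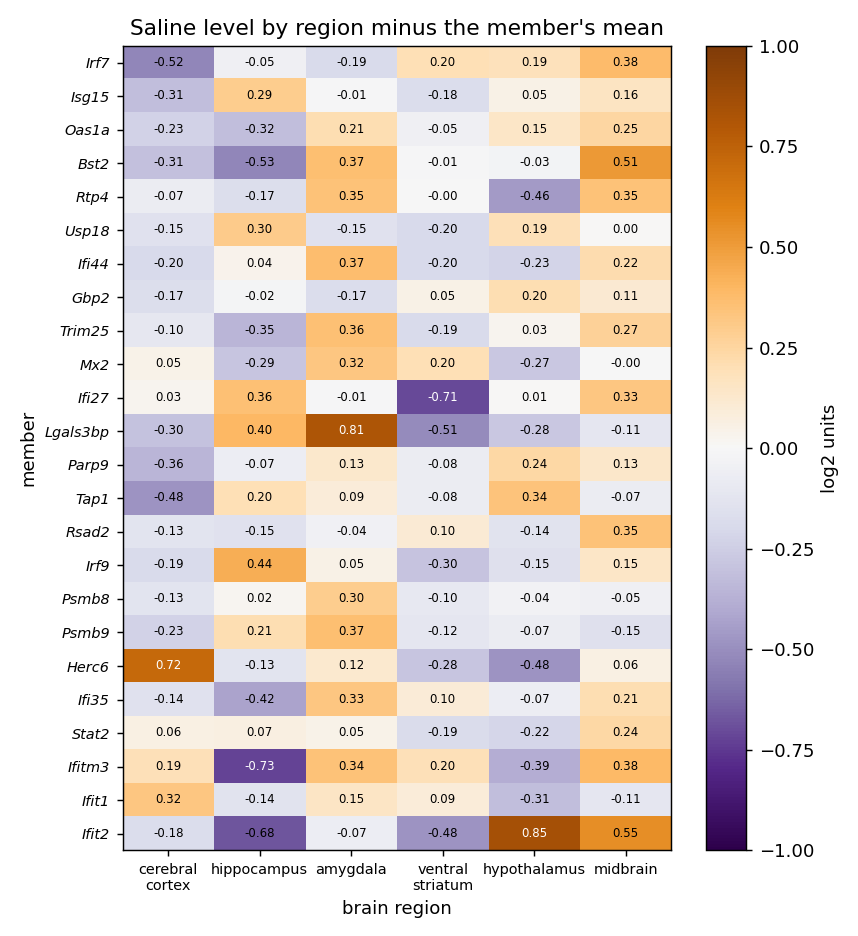
Saline level of 24 members in each region minus that member's mean over 6 regions, in log2 units (orange above, purple below). Irf7 and Bst2 are highest in midbrain, Ifit2 in hypothalamus (9.51) and Herc6 in cortex (8.88).

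Cell type markers were measured on the same arrays, and their part in these results was not tested. Beside the calls given here, 1.31% of all genes tested were called higher and 1.33% lower at the low dose. All 16 microglia markers passed the filter, and at the low dose 5 rose and 0 fell (C1qc 0.22, Laptm5 0.22, P2ry12 0.17, C1qa 0.15 and C1qb 0.11), with region medians of -0.0011 to 0.15, above 0 in every region except hypothalamus, while the members' medians were below 0 in all 6. At the high dose their region medians were -0.055 to 0.11. Blood cell markers, 9 of 10 on the array, had region medians of -0.27 to -0.073 at the low dose (3 of 7 tested fell) and 0.10 to 0.39 at the high dose. Of 13 lymphocyte and leukocyte markers 5 passed, and Cd3e, Cd3g, Cd4, Cd8a, Cd79b and Ms4a1 did not. Of these 5, the leukocyte surface gene Cd52 fell at the low dose (-0.15, limma adjusted p = 0.0309, below 0 in 6 of 6 regions) and averaged 0.23 at the high dose. Endothelial (13 tested) and astrocyte (8 tested) markers had low-dose medians of -0.015 and -0.007, with 1 called in each direction. Meningeal markers had region medians from -0.99 to 0.11 (low, 1 of 10 tested fell) and from -0.61 to 0.53 (high), and choroid plexus markers from -0.63 to 0.20 (low) and from -0.82 to 0.90 (high). The labelled regions held their own markers in saline: ventral striatum markers were 4.47 units higher there than elsewhere (6 of 6 genes), midbrain 3.84 (5 of 5), cortex 1.74 (5 of 5) and hippocampus 1.02 (5 of 6), while hypothalamus markers were 0.24 higher (4 of 6) and none were listed for amygdala.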

How the data were processed

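Scanner files of 24 2-colour rat arrays hold spot intensity (mean signal and local background per channel), made with Agilent Feature Extraction 9.5.3.1 per the file headers and the submitters' processing notes. The value table that the authors deposited holds log10 ratios of drug over saline. For every column 100% of values lay within 0.01 of the ratio of the scanner software's processed signals, which settles scale and direction. Its columns without a sample numbered 0. Column medians ranged from -0.03 to 0.02, so no centring was added. Steps before hybridisation other than column purification of total RNA and linear amplification are not given in the sources used here.

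Background was corrected by normexp (offset 50), ratios were normalised by loess with control spots at weight 0 and turned to drug over saline, and outlier spots were left out (limma 3.58.1, R 4.3.3, data.table version 1.17.8; figures with matplotlib 3.10.9). Between 56.8% and 89.7% of spots per channel were well above background, 236 to 708 spots per array were outliers and at most 8 were saturated. The number of arrays limits the precision. A probe counted as measured in a region where drug or saline RNA was well above background on both arrays, and was tested where measured in at least 4 of 6 regions. Regions in which a tested probe was too dim to count still entered its mean and test. The brightest probe represented a gene. limma (lmFit, eBayes) tested the mean of 6 regions against 0, 2-sided, with Benjamini-Hochberg adjustment. A trial of it on simulated data drew each region independently, whereas the real regions came from the same rats. That trial cannot show how the calls behave under this dependence. Saline levels were taken after Aquantile normalisation.

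The members and all lists were chosen with earlier results of these data known. Members given region by region were Irf7, Isg15, Oas1a, Bst2 and Rtp4, every member passing at the low dose, and the 3 with the largest difference between doses and the 3 with the widest range at the high dose. In the other interferon lists, genes passing at the low dose and the 3 highest and 3 lowest at the high dose were named, with Ube2l6, Oasl2 and Irgm lowest among the interferon-induced. Probe coordinates are in rn3, promoters in GRCr8. Alternatives were the processed signals, median centring, an offset of 16, the deposited values, the mean over probes, other filters, 1 dye orientation, each region left out and scan day.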

Additional observations from a re-analysis of the deposited data

Results flagged for a closer look

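Over 6 regions, 57 sets of member ratios were looked at for a region far from the others, and 3 were flagged. Chance flags about 1 in 20, so 3 of 57 is near the share that chance gives. All 3 lie at the high dose, on which the members were selected. At the high dose Rtp4 was -0.078 in amygdala, with the next region at -0.49 and the lowest at -0.64. At that dose Trim25 was -0.55 in cerebral cortex, next to -0.25 in the nearest region. Psmb8 was 0.087 in midbrain at the high dose, with the nearest region at -0.022 and the lowest at -0.053. Dhx58, an RNA sensor of the Rigi family, was below 0 in every region at the high dose (mean -0.11) and above 0 in every region at the low dose (mean 0.032). That difference of -0.14 was not tested, and at the low dose 6 of its 12 arrays were below 0. In hippocampus its low-dose spots were not well above background in either channel.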

How the results depend on the processing

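The number of members called lower at the low dose was 8, counting Cxcl10, whose call supports nothing. Processed signals of the scanner software gave 3, as did the deposited table, which share their background correction, and Irf7, Isg15 and Gbp2 were the 3 in each. It lay between 11 and 13 with 1 dye orientation (without replicate 1, 4 more members were called higher), where the dye effect stays in the values and calls over all genes rose from 614 to between 7234 and 8275, and between 5 and 8 with a region left out, the lowest without cortex. Within scan days 1, 2 and 3 it was 1, 0 and 4. The median member at the high dose (-0.12) moved to -0.20 with processed signals and -0.20 with the deposited table, and to -0.22 within day 3, with -0.14 to -0.13 for 1 orientation and -0.155 to -0.10 for a region left out. High minus low (-0.077) moved to -0.13 within day 3 and was -0.077 for either orientation and -0.11 to -0.085 for a region left out. Calls over all genes were 335 with processed signals, 336 with the deposited table, 367 with median centring, 390 to 566 with a region left out, and 138, 59 and 158 within days. Other interferon genes called, 2 in the main analysis, were 1 with median centring, 7 to 14 with 1 orientation (without replicate 2, 6 higher and 1 lower, neither Uba7 nor Ube2l6), 0 to 3 with a region left out and 0 within each day, and with processed signals and the deposited table the 2 were Samhd1, higher, and Uba7, lower. Of 393 values under an alternative for the 11 members given region by region, 333 stayed the same. Low-dose values then kept direction and call. High-dose values, which have no call, kept their sign and moved by no more than the spread between regions. Some values could not change, such as those of members with 1 probe under the mean over probes. A call was lost in 42 and gained in 4, and 11 high-dose values moved by more than that spread. The 3 that changed sign were Bst2 at the low dose without replicate 1 (0.076), Rtp4 at the low dose without replicate 2 (0.022) and Ifitm3 at the high dose within day 2 (0.024). Among these 11 members calls were gained by Bst2 without replicate 2 (-0.26), by Rtp4 without replicate 1 (-0.38) and without amygdala (-0.26), and by Trim25 without replicate 1 (-0.25). Another 10 members were called in 1 or 2 of 19 alternatives. The causes were not tested. The median range of saline levels (0.67) was 0.71 to 0.77 under its alternatives. Arrays were paired by region and dye swap, but not by rat, since the labels give no replicate numbers. Here 1 and 2 name the dye orientation, and the difference between doses within regions holds the arrays that chose the members and was not tested. Ratios of dim probes such as Cxcl10, Ifit3, Parp14 and Dhx58 are limited by signal over background.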
